A study of Mus musculus with 40 samples.

Results

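DTL3-ATL is a class of nuclei from the thin limb of the loop of Henle, taken as the authors' deposited annotation names it. A nucleus belonged to it if the coarser of the 2 deposited class columns read DTL3-ATL, and the finer column held the same nuclei under that name. It held 255 of 16500 nuclei from 4 right kidneys collected 24 h after surgery. All mice were male C57BL/6 of 8 to 12 weeks. Of these mice 2 had lost the left kidney by unilateral nephrectomy (UNx) and 2 had sham surgery. Nuclei came from a small piece cut across the middle of the kidney, were sorted on a DNA stain and were read with a droplet kit that counts the 3′ ends of transcripts by unique molecular identifiers (UMIs). Bulk libraries of polyA RNA came from a right kidney cross-section of another 36 mice of the same strain, sex and age, 6 of each surgery per time point (24, 48 and 72 h).

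The thin limb is the narrow stretch of the loop of Henle that runs into the inner medulla and back. Its descending part is known for the water channel Aqp1 in long loops, and its ascending part is nearly impermeable to water and permeable to chloride. Cells deep in the medulla sit in a concentrated interstitium and store osmolytes such as sorbitol, which the aldose reductase Akr1b3 makes from glucose.

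The labels put sham 1 and UNx 1 in batch 3 and sham 2 and UNx 2 in batch 4, so each batch holds 1 mouse of each group. The class had 83, 30, 88 and 54 nuclei in sham 1, sham 2, UNx 1 and UNx 2, the order used for all values of the nuclei below. Their summed UMIs were 444947, 284052, 537568 and 443679, and the median per nucleus was 5111, 6174, 5736 and 6281. Both batch 4 mice stood apart from both batch 3 mice. Nuclei with more than 10000 UMIs numbered 0, 8, 2 and 11, and markers of other tubule segments were several-fold higher in batch 4. Levels are counts per M UMIs (CPM) of the class in 1 mouse. Of 18 barcodes found in more than 1 library, 0 were in the class.

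The label was checked against thin limb markers, and the class matched neither limb's list as a whole. It carried some descending markers, lacked others, and had little of the ascending markers other than Epha7. Aqp1 stood at 299, 187, 288 and 179 CPM, against 353, 254, 370 and 249 CPM in the class DTL2 and 5.76, 56.0, 16.1 and 77.6 CPM in the class ATL. Bst1, a surface ectoenzyme, stood at 143, 178, 142 and 75.7 CPM. Slc4a11, a membrane transporter, stood at 101, 123, 138 and 100 CPM, below its 373 to 490 CPM in DTL2. With each nucleus thinned to 2000 UMIs, a Bst1 UMI was found in 20.0% of DTL3-ATL nuclei, 20.5% of DTL2 nuclei and 0.333% of ATL nuclei. Sptssb, also on the descending list, stood at 145, 95.4, 132 and 89.2 CPM, against 224 to 511 CPM in ATL and 0 to 49.6 CPM in DTL2. The other descending markers were low here. Fst, a follistatin, stood at 6.74, 70.4, 1.86 and 6.76 CPM, against 409 to 1579 CPM in DTL2. Slc14a2, a urea transporter, stood at 35.4, 61.4, 16.8 and 49.8 CPM and Corin, a membrane protease, at 0, 10.6, 0.930 and 7.08 CPM, against 1752 to 5243 CPM and 860.1 to 3223 CPM in DTL1.

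Ascending markers other than Epha7 were lower here than in ATL, except Sh3gl3, which was at 0 in all 4 mice in both classes. Prox1, a transcription factor of the ascending limb, stood at 2.25, 42.2, 0 and 60.8 CPM, against 394 to 797 CPM in ATL. The claudin Cldn10, a paracellular channel, stood at 20.2, 188, 33.5 and 175 CPM, against 411 to 757 CPM in ATL. Both were higher in the batch 4 mice, and Prox1 was close to 0 in batch 3. After thinning, a Prox1 UMI was found in 4 of 255 nuclei, or 1.57% (95% exact binomial interval 0.429 to 3.97%). The share was 54.7% of ATL nuclei and 1.26% of nuclei of the proximal class PTS1, which should lack the gene. Without thinning, Prox1 was found in 4.71% of the class, at a median of 5634 UMIs per nucleus, and in 4.12% of PTS1, at 10825 UMIs. The interval of the thinned share included the share in PTS1, so it is not read as expression. It pools the nuclei of 4 mice, whose Prox1 UMIs numbered 1, 12, 0 and 27, and covers counting error only. It therefore cannot show that the gene is absent.

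In every mouse Prox1 and Cldn10 stood below their lowest level in ATL, which goes against the ascending part of the name. Epha7, an ephrin receptor listed here as an ascending marker, or Kirrel3, a cell adhesion protein, was found in 247 of 255 nuclei (96.9%). The class is called below by its annotated name, DTL3-ATL, and by these leading genes.

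Akr1b3 was among the markers shared with ATL. It stood at 927, 944, 1767 and 1207 CPM, against 1332 to 3517 CPM in ATL and 84.8 to 362 CPM in DTL2. Thinned to 2000 UMIs, 69.4% of DTL3-ATL nuclei, 90.7% of ATL nuclei, 16.5% of DTL2 nuclei and 13.7% of PTS1 nuclei held an Akr1b3 UMI. For this gene the class lay between DTL2 and ATL in these shares. The summed level of 7 descending markers was 730.0, 726, 720.3 and 508 CPM, against 371 to 595 CPM in ATL and 1406 to 2570.5 CPM in DTL2. The summed level of 6 inner thin limb markers was 1497, 1741, 2510 and 1565 CPM. That of 6 ascending markers was 1523, 822, 1394 and 1078 CPM, above the descending sum in every mouse, and Epha7 alone gave 1456, 525, 1344 and 752 CPM of it. Crabp1 of the inner list was at 0 in all 4 mice, as it was in ATL, DTL2 and DTL1.

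**Figure D1:**
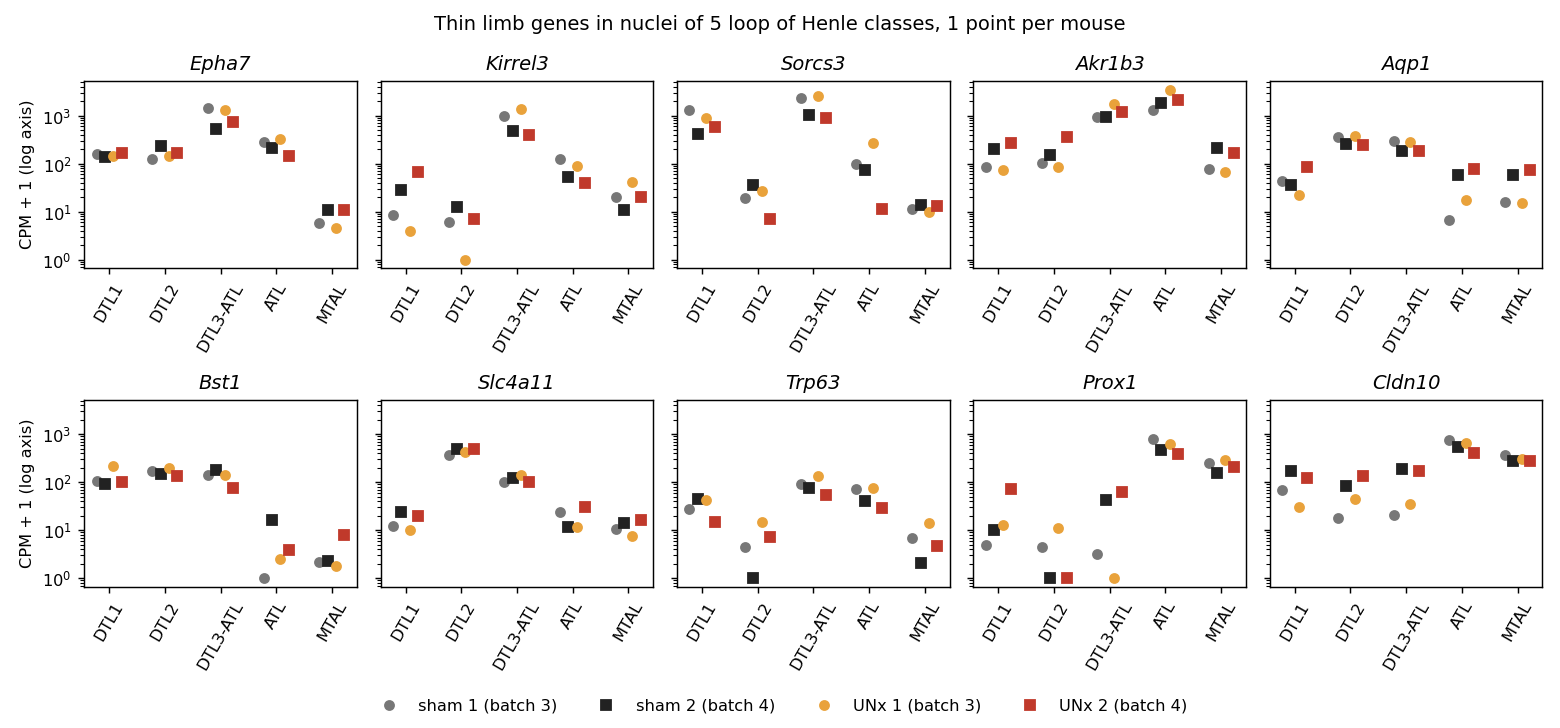
Level of 10 thin limb genes (CPM + 1, log axis) in nuclei of 5 classes of the loop of Henle, from the descending classes DTL1 and DTL2 to the medullary thick limb class MTAL. Each point is 1 mouse, with circles for batch 3 and squares for batch 4. Epha7 and Kirrel3 are highest in DTL3-ATL, Akr1b3 is high there and in ATL, and Prox1 and Cldn10 are highest in ATL among the thin limb classes.

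The genes that set the class apart were ranked by the ratio of its mean level to the highest mean, with 1 CPM added to both, among the other classes with at least 10 nuclei in every mouse, 23 classes in all with DTL3-ATL. A gene needed 50 CPM in each mouse, which 2821 genes had. Since the class was defined by clustering on expression, these levels are a description and carry no test. Kirrel3 came first, at 969, 472, 1407 and 396 CPM, 7.73 times the mean of the next class, the endothelial class EC2. Epha7 came second, at 1456, 525, 1344 and 752 CPM, 4.23 times the mean of ATL. For both genes the 2 batch 3 mice were the higher pair, and sham and UNx overlapped. Depdc1b, a DEP domain protein, was 2.30 times PTS1. Rbpj, the DNA-binding partner of Notch, was 2.17 times the class Per. Sorcs3, a sorting receptor, stood at 2378, 1041, 2640 and 883 CPM, 2.17 times DTL1. Cobll1, a relative of the actin nucleator cordon-bleu, stood at 2714, 2528, 4561 and 2469 CPM, 1.64 times DTL2.

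Below these the separation was small. The gene at rank 25, the kinesin Kif13b, was 1.24 times the next class and the gene at rank 26, Pitpnb, 1.23 times. DTL1, DTL2 or ATL was the next class for Epha7, Sorcs3, Cobll1, Fam78b, Fam98a, Plpp4 and Rasl11b, and classes outside the thin limb for Susd4, Rtn1 and Dtnb. Thinned to 2000 UMIs, 77.3% of DTL3-ATL nuclei held an Epha7 UMI, against 31.3% in ATL, 22.8% in DTL2 and 7.12% in PTS1. For Kirrel3 the shares were 58.4%, 12.7%, 0 of 127 nuclei in DTL2 (which allows up to 2.86%, exact upper bound) and 0.482%. For Sorcs3 they were 83.5%, 13.7%, 3.15% and 0.556%. Median UMIs per nucleus were 5634, 6627.5, 5877 and 10825 in these 4 classes, and without thinning Epha7 was found in 241 of 255, 180 of 300, 54 of 127 and 599 of 2697 nuclei. In mm10 coordinates (RefSeq, GRCm38.p6) the gene bodies lie at chr9:34485853-35040807 for Kirrel3, chr4:28813066-28967503 for Epha7, chr19:48206025-48805505 for Sorcs3 and chr2:65088339-65239398 for Cobll1.

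Of the 25 leading genes, 24 were lower in batch 4 than in batch 3, by a median of -0.81 on the log2 scale. Over all genes tested, 3873 of 7397 were lower in batch 4, with a median of -0.04. Markers of other segments moved the opposite way. The summed level of 8 proximal tubule markers was 724, 6710, 505 and 3516 CPM, that of 8 thick ascending limb markers 343, 1228, 428 and 2472 CPM, and that of 7 distal and connecting tubule markers 448, 1172, 412 and 1677 CPM. Slc34a1, the sodium phosphate cotransporter of the proximal tubule, was found in 48.2%, 100%, 52.3% and 96.3% of the nuclei. Markers of principal cells summed to 76.4 to 277 CPM, those of endothelium to 41.4 to 317 CPM, those of leukocytes to 29.8 to 113 CPM and those of urothelium to 85.6 to 145 CPM. Those of intercalated cells summed to 11.4 to 52.8 CPM, those of podocytes to 8.99 to 44.4 CPM, those of fibroblasts and mural cells to 7.44 to 65.4 CPM and those of adipocytes to 0 to 47.3 CPM. The summed proximal level was also higher in batch 4 in ATL, at 458, 5612, 454 and 3363 CPM.

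A few nuclei held much of this RNA. Slc12a3, the sodium chloride cotransporter of the distal convoluted tubule, had 9, 36, 13 and 365 UMIs, and 3 nuclei of UNx 2 held 314 of the last. In all, 20 nuclei (1, 5, 0 and 14) held at least 20 UMIs of any of 31 markers of other segments. Without them the proximal sum was 498, 2756, 507 and 2460 CPM, the thick limb sum 351, 1393, 430 and 1683 CPM and the distal sum 450, 1334, 406 and 1045 CPM. All 3 sums were still higher in both batch 4 mice. The UNx gap was smaller in all 3 lists, and the sham gap was smaller for the proximal list and somewhat larger for the other 2. These lists were among the markers by which the nuclei were left out. Falls in their sums were largely fixed by that choice. Epha7 was then at 1486, 708, 1353 and 872 CPM and Kirrel3 at 976, 649, 1417 and 535 CPM, still lower in batch 4. Prox1 went from 60.8 to 4.32 CPM in UNx 2 and from 42.2 to 64.9 CPM in sham 2.

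**Figure D2:**
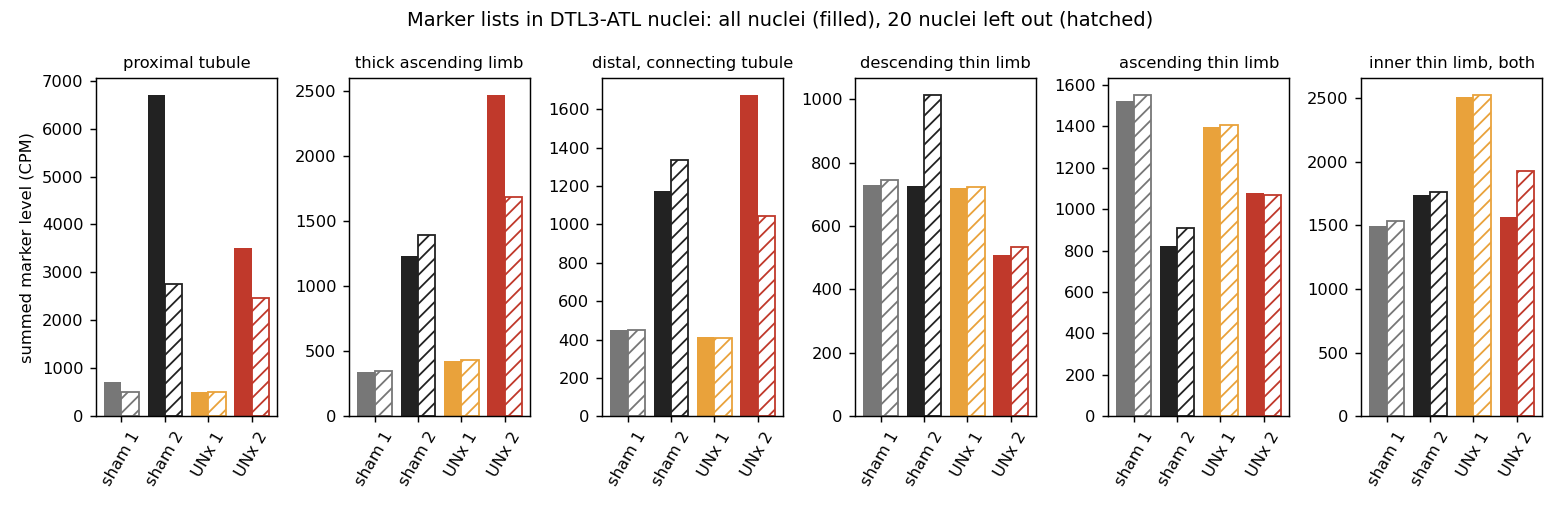
Summed level (CPM) of 6 marker lists in DTL3-ATL nuclei of each mouse, with filled bars for all 255 nuclei and hatched bars after leaving out 20 nuclei rich in markers of other segments. Proximal markers stand at 505 to 724 CPM in the batch 3 mice and at 3516 and 6710 CPM in the batch 4 mice, and at 2460 and 2756 CPM in batch 4 without the 20 nuclei.

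The class made up 1.55% of nuclei in sham 1 (95% exact interval 1.24 to 1.92%), 1.14% in sham 2 (0.768 to 1.62%), 1.71% in UNx 1 (1.37 to 2.10%) and 1.604% in UNx 2 (1.21 to 2.09%). The UNx mean of 1.66% was 0.312 percentage points above the sham mean of 1.34%, with a pooled SD of 0.215 points within groups. Both UNx mice were above both shams, but 2 mice against 2 can give no two-sided exact permutation p below 0.333, so that test could not reach 0.05. The difference was 0.155 points within batch 3 and 0.468 points within batch 4. Both UNx mice were also above both shams in ATL (1.42, 1.70, 1.79 and 2.58%) and MTAL (10.0, 7.31, 10.6 and 10.5%). The shares of DTL1, DTL2 and the principal cell class MPC overlapped between groups. As a share of all thin and thick limb nuclei DTL3-ATL was at 6.50%, 5.92%, 6.46% and 6.65%, where the groups overlapped. The share also depends on how much medulla the cut piece held, which was not tested. Intervals cover counting error only.

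UNx was compared with sham in the summed counts of the class, 2 mice against 2, with edgeR's quasi-likelihood test and Benjamini-Hochberg adjustment over 7397 genes. None passed (0 called, background 0%), 54 had an unadjusted p under 0.05, and the DESeq2 Wald test and limma voom also called 0. With 2 mice a group and the gap between batches left in the spread, this count does not show that no gene differed. The 3 genes with the lowest p on the lower side are given first. Nuak2, a kinase related to AMPK, stood at 151, 127, 59.5 and 55.2 CPM. Plpp3, a phosphatase of lipid phosphates, stood at 175, 211, 87.4 and 81.1 CPM. Klhl14, of the kelch family, stood at 184, 119, 67.0 and 48.5 CPM. In each of the 3 both UNx mice lay below both shams, with log2 fold changes of -1.24 ± 0.34, -1.14 ± 0.33 and -1.34 ± 0.39 (± SE, n = 2 mice a group, adjusted p 1.00 for all 3, edgeR).

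Of the 10 genes with the lowest p on the lower side, Gpcpd1, a glycerophosphocholine phosphodiesterase whose substrate is an osmolyte of the medulla, stood at 67.4, 125, 31.6 and 31.6 CPM. Med6, a Mediator subunit, stood at 58.1, 59.3, 17.8 and 20.3 CPM. Prkch, a protein kinase C, stood at 75.5, 69.1, 28.8 and 27.0 CPM. Zan and Arhgef33 were under 40 CPM in every mouse. None of the 10 overlapped between groups, which is what a low p selects, beside 965 of all 7397 genes (13.0%) that were lower in both UNx mice than in both shams.

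On the higher side Cdon, a co-receptor of hedgehog signalling, stood at 80.9, 91.5, 223 and 144 CPM. Bmpr1b, a receptor for bone morphogenetic proteins, stood at 20.2, 8.80, 53.9 and 69.9 CPM. Alkbh5, an RNA demethylase, stood at 27.0, 29.9, 72.5 and 68.5 CPM. The UNx mice were above both shams in each of these, and also in the following ones. Pik3c2b, a phosphoinositide kinase, stood at 58.4, 73.9, 166 and 118 CPM. Ampd3, an AMP deaminase, stood at 103, 88.0, 201 and 165 CPM. Tfrc, the transferrin receptor, stood at 15.8, 10.6, 37.2 and 47.3 CPM. Rgs7, Hs6st3, Cyp7b1 and Fam168a complete the 10, and 718 of all genes (9.71%) were higher in both UNx mice. The log2 fold changes of the 20 genes kept their direction in all 317 alternative values computed for them. Their choice largely fixed this, because groups that do not overlap keep their order when a mouse is left out. With 20 nuclei described above left out, Rgs7 overlapped between groups, at 6.92, 17.7, 33.7 and 8.63 CPM, and Hs6st3 in UNx 2 went from 56.0 to 25.9 CPM.

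**Figure D3:**
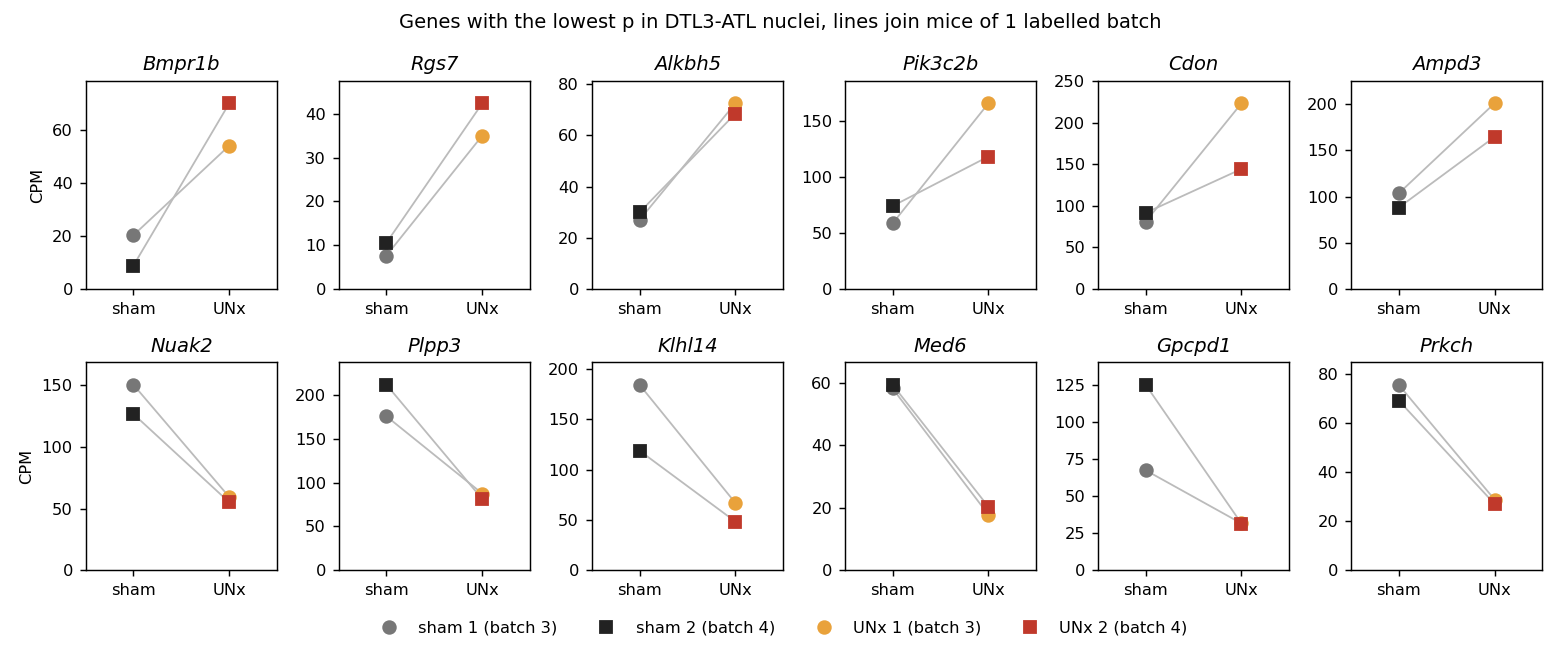
Level (CPM) of 12 of the 20 genes with the lowest p in DTL3-ATL nuclei. Each point is 1 mouse and lines join the 2 mice of a labelled batch. The UNx mice lie outside the sham values in every panel, for example at 55.2 and 59.5 CPM against 127 and 151 CPM for Nuak2, and 0 of the genes passed the test without a block.

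With the labelled batch as a block, which compares the 2 mice of each batch, 32 genes were called (0.433% of 7397), 15 higher (0.203%) and 17 lower (0.230%) in UNx. Of the genes above, Nuak2 (adjusted p 0.039), Plpp3 (0.032) and Klhl14 (0.013) were called lower, and Cdon (0.033), Bmpr1b (0.041) and Cyp7b1 (0.0032) higher. Cnnm1, of a family of magnesium transporters, stood at 67.4, 131, 169 and 284 CPM and was called higher by 1.27 ± 0.28 on the log2 scale (adjusted p 0.0055). Efemp1, an extracellular matrix protein, stood at 234, 139, 96.7 and 72.1 CPM and was called lower, at -1.10 ± 0.28 (0.042). Spp1, osteopontin, stood at 160, 478, 102 and 182 CPM and was called lower, at -0.99 ± 0.26 (0.042), although the groups overlapped. Angpt2, an endothelial growth factor, stood at 319, 85.0, 127 and 41.7 CPM and was called lower, at -1.21 ± 0.29 (0.023), again with overlap. Of the 32, 6 were higher and 4 lower in both UNx mice than in both shams, beside 9.71% and 13.0% of all genes.

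For 21 of the 32 genes another class had at least 4 times the level, and 12 of the 32 were highest in a proximal class. The same shares over all genes tested were not counted, so these counts have no background. Among the 21 were Plpp3 (11.8 times in the endothelial class EC1), Cyp7b1 (28.2 times in the proximal class PTS3) and Bmpr1b (41.5 times in the intercalated class ICA). Keg1, a proximal gene, stood at 214, 1445, 80.0 and 273 CPM, and Dab2, an endocytic adaptor of proximal cells, at 121, 1230, 57.7 and 265 CPM. Both were called lower, with sham 2, the mouse with the highest proximal sum (6710 CPM), far above the rest. Slc12a3 stood at 21.0, 127, 24.2 and 824 CPM and Slc12a1, the sodium potassium chloride cotransporter of the thick limb, at 47.2, 335, 72.5 and 1206 CPM. Both were called higher, with UNx 2, the mouse with the highest thick limb sum (2472 CPM), far above the rest. Without the block, Dab2 was at 0.52 without sham 2 and Slc12a1 at -1.36 without UNx 2. In each of those fits 1 group had no batch 4 mouse. With the 20 nuclei left out, 0 of 6144 genes were called with the block (lowest adjusted p 0.420, 300 at an unadjusted p under 0.05). The log2 fold changes then were -1.15 for Nuak2, -1.47 for Plpp3, -1.21 for Klhl14, 1.11 for Cdon, 2.05 for Bmpr1b, 1.41 for Cnnm1 and -1.16 for Efemp1. Those of Keg1 (-0.79), Dab2 (-0.21) and Slc12a3 (0.16) had shrunk from -1.94, -1.73 and 2.25. Keg1 and Slc12a3 were among the 31 markers by which those nuclei were left out, so their shrinking was largely fixed by that choice. Dab2 was not among these markers. With nuclei in the lowest and highest 10% of UMI totals left out, the block called 0 of 5681 genes (lowest adjusted p 0.067, 265 at an unadjusted p under 0.05). A DESeq2 test with the block called 9 genes, among them Keg1, Dab2, Slc12a1, mt-Nd1, mt-Nd3 and mt-Nd5. DESeq2 gave no adjusted p for Nuak2, Plpp3, Klhl14, Cdon, Bmpr1b, Cnnm1 or Efemp1, and its log2 fold changes were -1.24 for Nuak2, -1.14 for Plpp3, -1.33 for Klhl14, 1.27 for Cnnm1 and -1.08 for Efemp1. Leaving out the mitochondrially encoded genes, the block called 12, with Cnnm1 among them and none of Nuak2, Plpp3, Klhl14, Cdon, Bmpr1b or Efemp1.

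**Figure D4:**
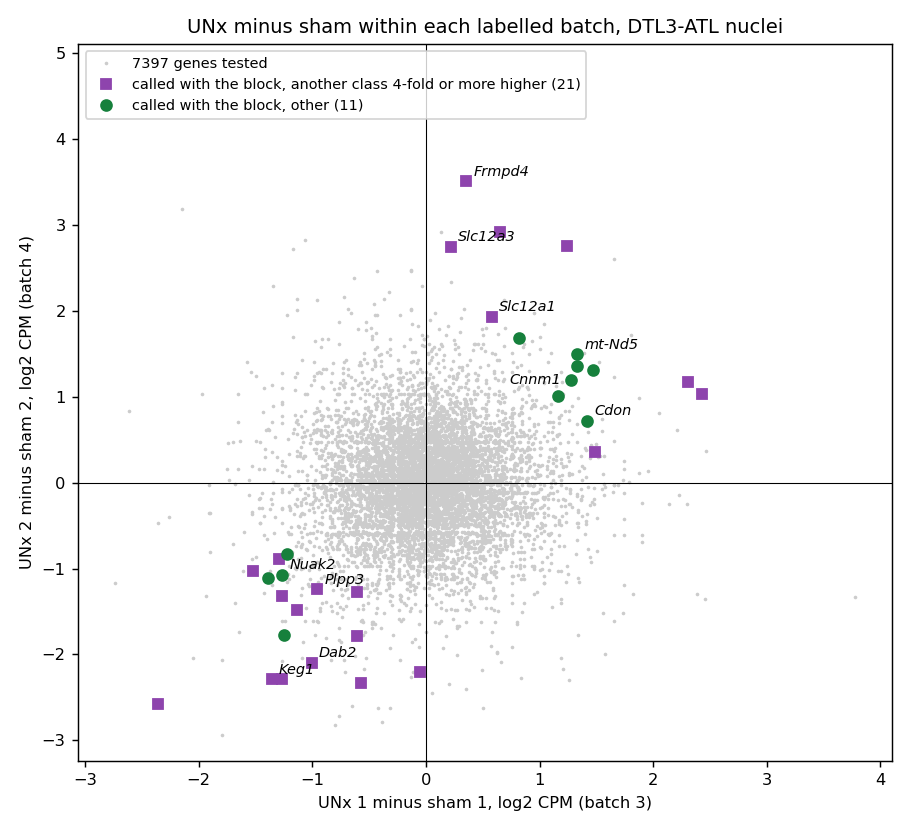
UNx minus sham (log2 CPM) within batch 3 (x axis) and within batch 4 (y axis) for the 7397 genes tested in DTL3-ATL nuclei. Large symbols are the 32 genes called with the block, as squares where another class has at least 4 times the level (21 genes) and circles otherwise. Nuak2 and Plpp3 lie near -1 on both axes and mt-Nd5 at 1.33 and 1.49, whereas Slc12a3 is at 0.22 in batch 3 and 2.75 in batch 4.

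Some of the same genes were called in other classes of nuclei, which come from the same 4 libraries. With the block, Nuak2 was called lower in PTS1 (-1.68, adjusted p 0.0029), Plpp3 in PTS1 (-1.10, 0.021) and Klhl14 in the principal cell class MPC (-1.25, 0.020). In ATL the values were -0.86 for Nuak2 (0.77), -0.72 for Plpp3 (0.82) and -0.61 for Klhl14 (0.78), none called. Cdon was at 0.96 in ATL (0.52) and -0.01 in MTAL (1.00). Keg1 was called lower in DTL1 (-1.83, 0.00033) and MPC (-1.21, 0.024) as well as in the proximal classes PTS1 (-2.51, 0.0014) and PTS3 (-2.63, 0.00014). Angpt2 was also called lower in DTL1 (-1.22, 0.022), the class with its highest level, at 2120, 350, 772 and 192 CPM. In DTL2 Angpt2 was at -0.70, not called.

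The 25 leading genes of the class themselves gave 0 calls, with or without the block. Their log2 fold changes with the block ran from -0.79 to 0.89 with a median of 0.10, beside -0.01 over all genes tested. Rtn1, a reticulon of the endoplasmic reticulum, stood at 171, 197, 383 and 273 CPM (0.89 ± 0.25, adjusted p 0.081 with the block). Depdc1b stood at 157, 169, 296 and 198 CPM (0.65 ± 0.26, 0.46). These 2 of 25 were the leading genes with both UNx mice above both shams, and none had both below, beside 9.71% and 13.0% of all genes.

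Among transport genes of the thin limb, 20 of 22 passed the filter on low counts and 0 were called without the block. With it, Slc12a1 was called higher, the thick limb gene whose level in UNx 2 is described above. The potassium channel gene Kcnj16 stood at 517, 485, 333 and 337 CPM, with both UNx mice lower (-0.53 ± 0.23, adjusted p 0.56 with the block). Atp1b1, a sodium pump subunit gene (586, 982, 641 and 969 CPM), and Fxyd2, a regulator of the pump (472, 1532, 691 and 1086 CPM), were higher in both batch 4 mice than in both batch 3 mice. Of 12 claudin and tight junction genes 0 were called, and Pard3, a polarity protein, stood at 1078, 1186, 1418 and 968 CPM.

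Of the genes for osmotic response and osmolytes, 13 of 21 passed the filter and 0 were called. Nfat5, the transcription factor that drives this response, stood at 2300, 1166, 1572 and 841 CPM (-0.46 ± 0.22, adjusted p 0.72 with the block). Akr1b3 was higher in both UNx mice (0.70 ± 0.22, 0.17), as it also was in ATL. The taurine transporter gene Slc6a6 stood at 522, 730, 656 and 649 CPM and the chaperone gene Cryab at 543, 747, 704 and 311 CPM, where the groups overlapped. The list held 3 genes higher and 1 lower in both UNx mice, beside 9.71% and 13.0% of all genes, and its median was -0.0047. Among urea, vasopressin and endothelin signals 5 of 20 genes passed the filter and 0 were called. Adcy6, an adenylyl cyclase, stood at 142, 91.5, 182 and 228 CPM (0.83 ± 0.27, 0.21).

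Of the growth and mTORC1 genes, 19 of 25 passed the filter and 0 were called. Erbb4, a receptor of the epidermal growth factor family, stood at 775, 750, 1445 and 1010 CPM (0.72 ± 0.22, adjusted p 0.15 with the block). Igf1r, the receptor of insulin-like growth factor, stood at 971, 1133, 863 and 807 CPM (-0.28 ± 0.22, 0.97), and Igfbp7 at 814, 1050, 999 and 1222 CPM. The list's median was 0.25. For DNA replication 1 of 22 genes passed the filter (Pola1), and for mitosis 1 of 22 (Kif23, at 27.0, 5.46, 18.6 and 38.3 CPM), and neither was called. The low levels left these 2 lists almost untested.

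Of the Notch, Wnt and tubule transcription factor genes, 17 of 26 passed the filter and 0 were called. Pax8, a kidney lineage factor, stood at 845, 1063, 1637 and 1427 CPM (0.74 ± 0.22, adjusted p 0.12 with the block) and its relative Pax2 at 2016, 1809, 2764 and 2469 CPM (0.50 ± 0.23, 0.62). Both UNx mice were above both shams for these 2 genes. The nuclear receptor gene Esrrg overlapped between groups, at 621, 1282, 471 and 1002 CPM.

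All 13 mitochondrially encoded genes passed the filter. None was called without the block, and 3 were called higher with it: mt-Nd5 at 98.9, 1228, 255 and 3246 CPM (1.45 ± 0.24), mt-Nd3 at 62.9, 449, 182 and 1057 CPM (1.40 ± 0.25) and mt-Nd1 at 362, 1659, 811 and 3127 CPM (1.09 ± 0.23). All 13 were above 0, with a median of 0.93. This RNA is made outside the nucleus, and its level was higher in batch 4, as was that of the other segments' markers. With the block mt-Nd3 was also called higher in MTAL (1.11), MPC (1.15), PTS1 (0.89), PTS3 (1.02) and the distal class DCT (1.07). The part of RNA from outside the nuclei in these values was not tested. Without the block and without UNx 2 the 3 genes were below 0, mt-Nd5 at -1.37, mt-Nd3 at -0.47 and mt-Nd1 at -0.31, with sham 2 as the 1 batch 4 mouse left in the fit. 

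Among 25 respiratory chain and glycolysis genes of the nuclear genome 0 were called, with a median of -0.03. Hk1, a hexokinase, stood at 82.2, 51.4, 112 and 153 CPM (0.95 ± 0.32, adjusted p 0.21 with the block). Of 13 tested cholesterol synthesis genes 0 were called. All 13 were above 0, at a median of 0.15, and 2 were higher in both UNx mice, beside 9.71% of all genes. Msmo1, a sterol oxidase, had the lowest p (22.5, 10.6, 50.2 and 29.3 CPM). Of 10 tested clock genes 0 were called and 3 were above 0, at a median of -0.31. Dbp, an output gene of the clock, stood at 47.2, 82.6, 22.3 and 24.8 CPM (-1.33 ± 0.48, 0.31), one of 4 in the list with both UNx mice below both shams, beside 13.0% of all genes.

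Of 9 tested tubular injury genes Spp1 was called lower with the block and Sox4, at 11.2, 21.1, 28.2 and 40.6 CPM, was not called (1.16 ± 0.62, adjusted p 0.82). Of 9 tested glucocorticoid response genes 0 were called, and the receptor gene Nr3c1 stood at 166, 195, 102 and 140.5 CPM (-0.55 ± 0.27, 0.74). Of 5 tested immediate early genes 0 were called, and Klf6 stood at 33.7, 14.1, 31.6 and 42.8 CPM. Of the thin limb marker genes 0 were called. Over all genes tested, 3653 of 7397 were above 0.

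The UNx effect in DTL3-ATL was compared with that in 3 neighbouring classes by testing the difference of effects with the mouse as a block. Against MTAL (1626 nuclei) 0 of 11917 genes differed (0%, 227 at an unadjusted p under 0.05). Against ATL (300 nuclei) 0 of 8781 differed (0%, 263 at an unadjusted p under 0.05). The limit given for the 0 calls above applies to both counts. Against DTL2 (127 nuclei) 2 of 6956 differed, both below 0 (0.0288%). Runx1, a transcription factor, stood at 76.5, 10.6, 31.6 and 20.3 CPM in DTL3-ATL and at 20.6, 0, 224 and 86.9 CPM in DTL2, a difference of -4.47 ± 0.84 (adjusted p 0.048, edgeR). Gm42397, a predicted gene with its highest level in PTS3, differed by -3.47 ± 0.63 (0.048). For Runx1 the 2 UNx mice were the highest in DTL2 and the middle pair in DTL3-ATL. DTL2 had 11 nuclei in sham 2 and 20 in UNx 2. With DESeq2 size factors in edgeR and in the DESeq2 test 0 genes differed from DTL2.

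With a batch effect fitted for each class as well, 24 genes differed from MTAL (0.201%), 12 in each direction (0.101%). From ATL 10 differed (0.114%), 4 above 0 (0.0456%) and 6 below (0.0683%). From DTL2 11 differed (0.158%), 1 above 0 (0.0144%) and 10 below (0.144%). Nuak2 was among those that differed from MTAL (-1.63 ± 0.30, adjusted p 0.00030). Its level in MTAL was 163, 194, 237 and 211 CPM, with both UNx mice above both shams, the opposite of DTL3-ATL. Akr1b3 (0.95 ± 0.19, 0.0033), Cnnm1 (1.34 ± 0.29, 0.0064) and Col4a6, a basement membrane collagen (1.19 ± 0.25, 0.0046), differed from MTAL in the other direction. In ATL both UNx mice were also above both shams for Akr1b3 (1332, 1801, 3517 and 2172 CPM) and Cnnm1 (167, 339, 436 and 433 CPM). Neither gene was among those that differed from ATL. Erbb4 differed from both MTAL (0.77 ± 0.16, 0.0057) and ATL (0.83 ± 0.18, 0.0032), and its ATL levels were 4239, 3040, 4027 and 2769 CPM. Sema5a, a semaphorin, differed from ATL by -1.40 ± 0.29 (0.0032), at 1208, 807, 1059 and 609 CPM in DTL3-ATL and 59.6, 70.3, 140 and 149 CPM in ATL. Cdh4, a cadherin, stood at 103, 130, 112 and 60.9 CPM in DTL3-ATL and at 1.92, 5.21, 39.9 and 27.7 CPM in ATL (-3.68 ± 0.75, 0.0032). Lrp4, a co-receptor of agrin and Wnt signals, differed from ATL by -2.04 ± 0.48 (0.020). Col4a3, another basement membrane collagen, stood at 2236, 2199, 3414 and 3019 CPM in DTL3-ATL and at 943, 1054, 893 and 658 CPM in DTL2, and its difference did not pass (0.92 ± 0.29, 0.33). The genes that differed from DTL2 included the proximal genes Slc34a1, Slc13a1, Slc13a3 and Keg1. The summed proximal markers in DTL2 were 420, 2582, 519 and 4677 CPM, in the opposite order of the 2 batch 4 mice from that in DTL3-ATL, and their part in these differences was not tested.

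Bulk RNA of other mice was read for the 25 leading genes, whose choice did not use these libraries. Bulk levels are CPM scaled with TMM factors. In bulk, fewer cells of a type and less RNA per cell cannot be told apart, and the leading genes were also found in other classes of nuclei. At 24 h 18 of the 25 passed the filter and 3 were called (background 27.3% of 14104 genes), 1 higher (14.2%) and 2 lower (13.1%). Rbpj ranged from 34.4 to 40.5 CPM (median 36.7) in shams and from 27.9 to 32.8 CPM (31.3) in UNx, with no overlap (-0.27 ± 0.06, n = 6 a group, adjusted p 0.0040, edgeR). Cobll1 ranged from 200.4 to 267 CPM (median 244) in shams and from 187 to 232 CPM (205) in UNx, with overlap (-0.22 ± 0.07, 0.038). Depdc1b ranged from 8.60 to 10.5 CPM (median 9.19) in shams and from 10.1 to 12.3 CPM (11.8) in UNx (0.31 ± 0.07, 0.0055). In the nuclei of 24 h Rbpj and Cobll1 had been above 0, at 0.26 ± 0.24 and 0.41 ± 0.23 with the block, neither called.

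At 48 h 19 passed the filter and 6 were called (background 32.9% of 14280 genes), 1 higher (16.9%) and 5 lower (16.0%). Kif13b ranged from 39.7 to 60.3 CPM (median 46.9) in shams and from 28.5 to 37.6 CPM (35.2) in UNx, with no overlap (-0.51 ± 0.10, adjusted p 0.0020, edgeR). Rps6ka3, a ribosomal S6 kinase, ranged from 55.0 to 66.3 CPM in shams and from 46.1 to 56.0 CPM in UNx (-0.29 ± 0.06, 0.0047), with overlap. Sesn1, a stress-induced sestrin, ranged from 12.9 to 18.2 CPM in shams and from 9.37 to 13.9 CPM in UNx (-0.46 ± 0.11, 0.0079), with overlap. Rbpj was lower again (-0.22 ± 0.06, 0.012), and Rps6ka5 was called at -0.67 ± 0.23 (0.040). Dtnb, a dystrobrevin, ranged from 24.4 to 28.3 CPM in shams and from 26.5 to 37.6 CPM in UNx (0.32 ± 0.08, 0.0061). At 72 h 0 of 19 were called (background 1.71% of 14556 genes), 2 had an unadjusted p under 0.05, and the DESeq2 test called 0. The 3 of 18 calls of 24 h are a smaller share than the background, and the 6 of 19 of 48 h are close to it.

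In 4 bulk libraries the summed level of 6 inner thin limb markers was far above the others. It was 882 and 688 CPM in shams 1 and 3 of 48 h, against 114 to 162 CPM in the other shams and 125 to 288 CPM in the UNx mice of that time. It was 1000.2 CPM in sham 5 and 1352 CPM in UNx 6 of 72 h, against 135 to 223 CPM in the other libraries of 72 h, and 113 to 169 CPM in all 12 libraries of 24 h. Principal cell markers were also highest there, at 820.1 and 825 CPM in shams 1 and 3 of 48 h (368 to 509 CPM in the other shams), 845 CPM in sham 5 and 1046 CPM in UNx 6 of 72 h (400 to 604 CPM in the other libraries). The ascending list differed less, at 395 and 358 CPM in shams 1 and 3 (219 to 325 CPM in the other shams), 377 CPM in sham 5 (296 to 331 CPM) and 337 CPM in UNx 6 (336 to 362 CPM). The descending list, at 1044, 1170.1, 1031 and 998 CPM in these 4 libraries, was above all others of its group in sham 3 of 48 h and within their range in the other 3. The leading genes were high in the same libraries. In shams 1 and 3 of 48 h 15 of 19 leading genes were above all other shams (78.9%, beside 13.2% of all genes). In sham 5 of 72 h the count was 17 of 19 (89.5%, beside 23.5%), and in UNx 6 of 72 h 16 of 19 (84.2%, beside 29.4%). Lamb3, a laminin chain, was at 38.5 CPM in sham 5 and 46.4 CPM in UNx 6, against 2.34 to 6.06 CPM in the other shams and 2.70 to 4.13 CPM in the other UNx mice.

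Without shams 1 and 3, 3 of 19 leading genes were called at 48 h (Rps6ka3, Kif13b and Dtnb, background 24.2%, or 13.1% higher and 11.1% lower). Without sham 5 and UNx 6, 1 of 19 was called at 72 h, Epha7 at -0.80 (adjusted p 0.045, edgeR, background 4.62%, or 1.93% lower). With all 12 libraries of 72 h Epha7 ranged from 2.54 to 6.91 CPM (median 3.36) in shams and from 1.22 to 6.80 CPM (2.05) in UNx (-0.52 ± 0.38, 0.53). These sets of libraries were chosen after the data were seen, by the marker sums and not by group. At 48 h, however, only shams were left out. UNx 2 and UNx 6 of 48 h stayed in, at 288 and 262 CPM on the inner list, against 125 to 158 CPM in the other UNx mice.

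**Figure D5:**
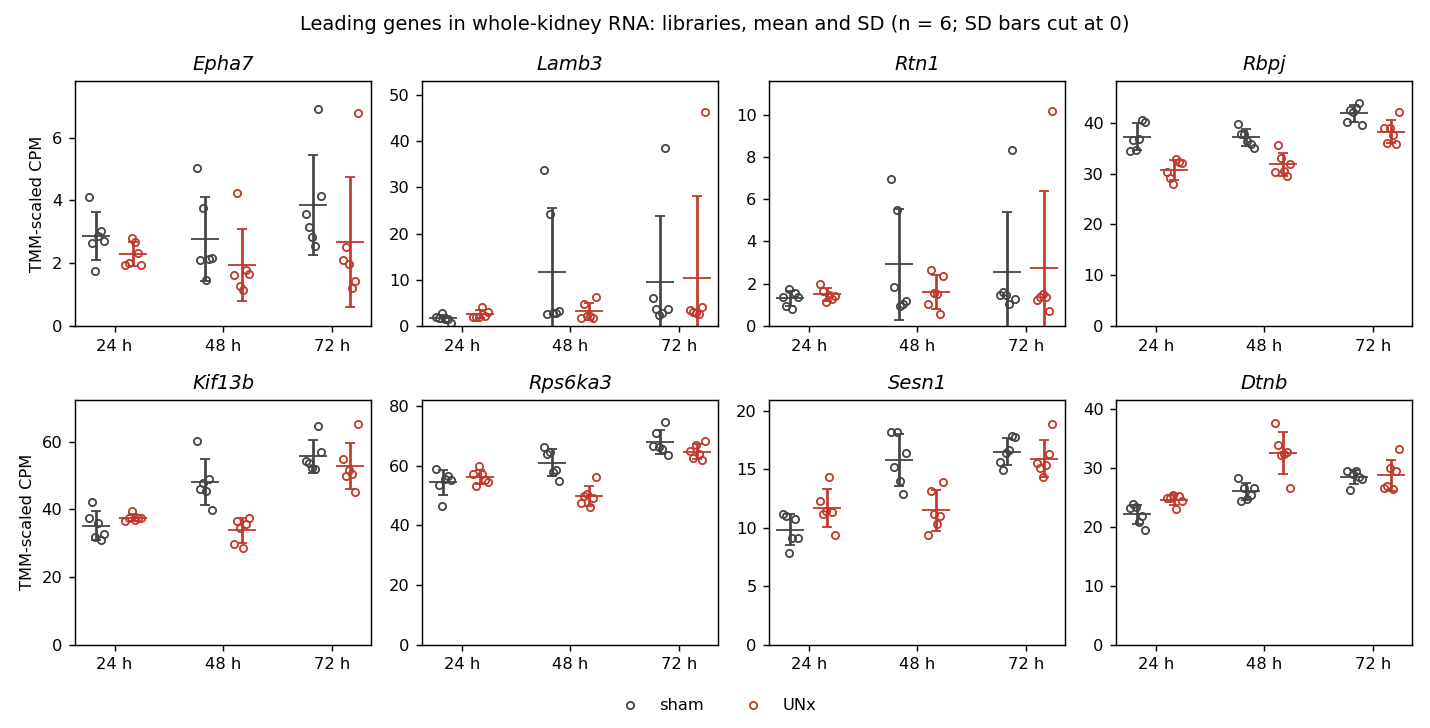
Level (TMM-scaled CPM) of 8 leading genes in bulk RNA at 24, 48 and 72 h. Circles are libraries, lines the mean and bars the SD of 6 sham (grey) and 6 UNx (red) mice, with bars cut at 0. Rbpj is lower in UNx without overlap at 24 h and Kif13b at 48 h, and the high points of Epha7, Lamb3 and Rtn1 at 72 h are sham 5 and UNx 6.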

How the data were processed

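The authors deposited estimated counts, not normalized, as a table of 16500 nuclei by 32285 genes and a bulk table of 36 libraries by 28467 genes. Per the submitters' processing notes, alevin, Seurat and mm10 were used for the nuclei, and FastQC 0.11.8, Salmon 1.5.0, R 4.10 and GRCm39 for bulk; their settings were not stated in these sources. Of the nuclei's values above 0, 13.9% were not whole (tolerance 1e-06), and of bulk values 34.1%. The lowest UMI total of a nucleus was 1755, so nuclei had been filtered before deposit; doublet treatment is not given, and no caller was run. Bulk totals were 14.9 to 24.1 M. Bulk IDs were paired with symbols through a supplied gene name table (28340 named). Columns of per-sample values with no mapped sample numbered 0.

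Counts were summed per mouse and class, rounded, and tested with edgeR 4.0.16 in R 4.3.3 (quasi-likelihood, filterByExpr, TMM factors, two-sided, Benjamini-Hochberg adjusted p under 0.05). DESeq2 1.42.0 and limma 3.58.1 (voom) were alternatives. The edgeR fits were tested on simulated data first, other than the class differences with a batch effect for each class. The spread between mice in these data was assumed. Of genes given a 2-fold or 4-fold change, the nucleus fit without a block called 0% and 0%, and with the block 18.9% and 88.5%. The class differences called 0% and 0%, and the bulk fits 97.0 to 98.0% and 100%. A count of 0 from the unblocked nucleus fits therefore does not show that no gene differed. The chi-square of replicate pairs was 5.93 and 8.44 per gene in the class. Nothing but the mouse numbers says that the samples are separate animals, so p-values measure the spread between these samples. Replicate numbers pair the nuclei because the labels give each number 1 batch (correlation of deviations 0.630). Thinning used seed 1. Gene lists (15) and marker lists (14) are described by counts and medians of the blocked log2 fold change. The members and lists were chosen with earlier results of these data known. Genes named are the 25 leading ones, the 10 of lowest p on each side, the 3 of lowest p on each side of every class difference, and of each list the 3 highest, the lowest p and those called. Predicted genes were passed over. Akr1b3, Cnnm1, Sema5a and Col4a6 in the class differences, and Cnnm1, Efemp1, Spp1, Angpt2 and the other genes called with the block, were chosen after their values were seen, as were the alternatives that combine the block with another choice or leave out marked nuclei or bulk libraries. Some genes that these rules name are not reported here.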

Additional observations from a re-analysis of the deposited data

Results flagged for a closer look

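In bulk groups of 6 libraries, 16 of 112 groups checked for the leading genes had 1 library farther from the rest than Dixon's 95% criterion allows; chance gives about 1 in 20. In sham 5 of 72 h these were Epha7 (6.91 CPM), Sorcs3 (3.69 CPM), Rasl11b (28.5 CPM), Fam129b (51.9 CPM), Lamb3 (38.5 CPM) and Rtn1 (8.31 CPM). In UNx 6 of 72 h the same 6 genes stood out, Epha7 at 6.80 CPM, Sorcs3 at 2.05 CPM, Rasl11b at 34.9 CPM, Fam129b at 57.4 CPM, Lamb3 at 46.4 CPM and Rtn1 at 10.2 CPM. In UNx 2 of 48 h Epha7 (4.23 CPM), Sorcs3 (1.37 CPM) and Fam129b (35.6 CPM) were high, and in UNx 3 of 24 h Kif13b (39.5 CPM).

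The UNx effects in DTL3-ATL and DTL2 differed for Runx1 (-4.47) and Gm42397 (-3.47) on the log2 scale. For 2 leading genes all UNx libraries lay on one side of the sham mean at 24 h and on the other at 48 h: the log2 fold change at 24 h minus that at 48 h was 0.60 for Kif13b and 2.42 for Lamb3. These 2 differences were not tested, and 24 h and 48 h libraries carry different batch labels. Lamb3 at 48 h was at 33.8 and 24.3 CPM in shams 1 and 3 and at 2.61 to 3.21 CPM in the other shams.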

How the results depend on the processing

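Of 822 alternative values, 44 summary values stayed on their side or within their range and 28 moved; of values for single genes 586 kept their side, 146 passed a threshold they had missed and 18 changed sign. For UNx against sham in the nuclei, 0 genes were called with DESeq2 size factors, the DESeq2 test, voom, without mitochondrially encoded genes, without the lowest and highest 10% of UMI totals and without each mouse in turn, and 4 without the filter on low counts. The replicate block called 32, the block with DESeq2 9 (7 of them among the 32, with no adjusted p given for most of the others), with voom 59 (29), without the filter 38 (26), with DESeq2 size factors 39 (32) and without mitochondrially encoded genes 12 (12). For the difference from MTAL 2 genes were called without the filter and 24 with the replicate block for each class. For that from ATL the counts were 6 and 10, and 7 to 23 without 1 mouse (23 without sham 2). For that from DTL2 they were 6 and 11, 0 with DESeq2 size factors, 0 in the DESeq2 test and 4 to 42 without 1 mouse (42 without sham 1). Where 1 mouse is left out its group has 1 mouse, assumed to vary like the rest. With 50 leading genes, 9 were called in bulk at 24 h and 15 at 48 h. At 48 h 8 of 19 were called without UNx 6, 0 of 23 without UNx 1 to 5 (which leaves 1 UNx library, so that this 0 says nothing), and 3 without shams 1 and 3; at 72 h 1 was called without sham 5 and UNx 6. Bulk replicate numbers share only a number (correlations -0.29 to 0.14), and with the replicate block the bulk counts were 3, 6 and 0. Without 1 mouse the share difference was 0.103 to 0.520 points, and outside the proximal tubule it was 0.441 points.

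Sign changes occurred in genes called with the block and in none of the 20 with the lowest p. The choice of those 20 largely fixed their direction. Over the fits without 1 mouse, log2 fold changes that were above 0 without sham 2 ranged from -3.53 to 0.52 for Dab2, -4.34 to 1.55 for Nhs, -3.85 to 1.07 for Gm42397, -4.59 to 0.24 for Cdh13, -2.85 to 0.084 for Slc13a1, -3.91 to 0.83 for Hsd3b2, -2.30 to 0.042 for Ndrg1 and -3.09 to 1.05 for C330002G04Rik. Those below 0 without UNx 2 ranged from -1.54 to 4.49 for Slc12a3, -1.37 to 4.27 for mt-Nd5, -0.47 to 3.41 for mt-Nd3, -1.36 to 3.87 for Slc12a1, -0.31 to 2.55 for mt-Nd1, -1.06 to 3.50 for Gm42418 and -0.20 to 3.29 for Slc22a2. Angpt2 ranged from -2.24 to 0.047, the last without sham 1. Without the lowest and highest 10% of UMI totals Slc12a3 was at -0.17 and, with the replicate block, at -0.071. The fits without 1 mouse had no block, so the group of that mouse was left with 1 batch. The gap between batches then enters the fold change. Batch 4 minus batch 3 was 3.66 for mt-Nd5 and 3.63 for Nhs on the log2 scale. Within batches 3 and 4, mt-Nd5 was at 1.33 and 1.49 and Nhs at -1.14 and -1.48. For every gene named here with a range, the 2 within-batch differences had the same sign. The cause was not tested. Sham 2 gave 30 nuclei and 284052 UMIs, the least of the 4 mice, which limits every comparison of the class.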
